A study of Saccharomyces cerevisiae with 30 samples.

Results

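The desiccation and stationary phase genes of budding yeast described here were SIP18, GRE1, STF2, SPG1, SPG4, HSP12 and DDR2, which are 7 of the 7127 features in the count table. They were picked by symbol, and the pick was made with earlier results of these libraries in view. The low SIP18 level of the mutant at time point 3 and the wide SPG1 range over the wild-type cycle were among the values known. Strain differences at time point 3, averages and interactions that hold time point 3, and the cycles of both strains are therefore given below as descriptions without a p-value. Where these are said to pass or miss the threshold, that too is a description and not a test. Messenger RNA was measured by RNA sequencing in 30 libraries, 15 of a yaf9W89A mutant (here W89A) and 15 of wild type (WT). Both strains had the CEN.PK122-alpha background and were grown in a chemostat, first on rich medium to starvation and then on slowly fed low glucose. There the culture goes through the yeast metabolic cycle, in which oxygen consumption and transcription swing together. In each strain 5 time points were taken in each of 3 consecutive cycles, which gives W89A and WT groups of 3 libraries at time points 1 to 5. Yaf9 is a subunit of the SWR1 histone exchange complex and of the NuA4 histone acetyltransferase, and its YEATS domain binds acylated lysines of histones.

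The 3 libraries of a group came from successive cycles and no separate cultures were stated, so the spread is that between cycles, and a strain effect cannot be told apart from an effect of its culture. Read counts per gene do not show the substitution itself. Libraries held 16540627 to 20260295 counts, and all 7 genes passed the filter on low counts, as did 6256 genes in all. Of the alpha-cell genes, MF(ALPHA)1 lay between 779 and 4270 CPM (read counts scaled to the TMM-normalized library size), STE3 between 143 and 752 CPM and MF(ALPHA)2 between 9.53 and 286 CPM. Of the a-cell genes, MFA1 and MFA2 were at no more than 11.1 CPM and STE2 lay between 7.84 and 40.9 CPM, above MF(ALPHA)2 in 5 of the 30 libraries, all of time point 5. For time points 4 and 5 of W89A, the 2 libraries of cycle 1 are placed as in the authors' comparison tables, which is the reverse of the title order. The W89A library of time point 4, cycle 3, stood apart from the other 2 of its group. Its correlation with the mean profile of those 2 was 0.970, the lowest of the 30. The W89A library of time point 3, cycle 3, came next (0.978).

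Genes of this kind are kept low in fast growth and are switched on when yeast runs out of glucose, dries out or meets salt or heat. Several encode hydrophilins, small and very hydrophilic proteins that stay soluble and protect other molecules when water is lost. Their transcription is known to depend on the zinc finger factors Msn2 and Msn4, which bind the stress response element (STRE), and on Gis1, which binds the post-diauxic shift (PDS) element. Protein kinase A holds these factors in check during growth, and the kinases Rim15 and Hog1 act on them in starvation and in high salt. In the metabolic cycle, such genes belong to the quiescent-like, reductive charging phase.

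All 7 are short single-exon coding genes, placed here on the R64 reference of the S288C strain, not of CEN.PK. SIP18 (YMR175W), a phospholipid-binding hydrophilin, lies at chrXIII:611016-611255 on the + strand and encodes 79 residues. Its paralog GRE1 (YPL223C), a hydrophilin induced by several stresses, lies at chrXVI:128632-129138 on the - strand and encodes 168. STF2 (YGR008C), a hydrophilin first named as a stabilizing factor of the mitochondrial ATPase, lies at chrVII:508110-508364 on the - strand and encodes 84. SPG1 (YGR236C, chrVII:962530-962817, - strand, 95 residues) and SPG4 (YMR107W, chrXIII:483014-483361, + strand, 115 residues) are named for a need in stationary phase survival at high temperature. HSP12 (YFL014W, chrVI:107256-107585, + strand, 109 residues) encodes a membrane-associated small heat shock protein. DDR2 (YOL052C-A, chrXV:231570-231755, - strand, 61 residues) encodes a small protein induced by many stresses and first found through DNA damage. No other feature with coordinates in the tables overlapped any of the 7, and the nearest chromosome end was between 107 and 508 kb away.

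The 500 bases upstream of each start codon were searched on both strands for the STRE, spelled AGGGG, and for the PDS core, spelled AGGGAT, which share their first 4 letters but cannot match at the same place. HSP12 held 5 STRE matches, DDR2 4, SIP18 2 and STF2 2, while GRE1, SPG1 and SPG4 held none. Of 6000 yeast promoters of the same length, 34.1% held at least 1 STRE, 8.13% at least 2 and 1.83% at least 3. The PDS core occurred once each upstream of SIP18, GRE1, SPG1 and STF2 and in 15.4% of all promoters. SPG4 had neither motif in this window. The windows of the 4 genes with STRE matches are shown because they hold the motifs through which this class of gene is best known. Each is 300 bases long and begins 450 bases before the start codon, 5' to 3' on the gene's strand (RefSeq, R64), with matches to either motif in capitals, read on the opposite strand where they appear as CCCCT.
HSP12: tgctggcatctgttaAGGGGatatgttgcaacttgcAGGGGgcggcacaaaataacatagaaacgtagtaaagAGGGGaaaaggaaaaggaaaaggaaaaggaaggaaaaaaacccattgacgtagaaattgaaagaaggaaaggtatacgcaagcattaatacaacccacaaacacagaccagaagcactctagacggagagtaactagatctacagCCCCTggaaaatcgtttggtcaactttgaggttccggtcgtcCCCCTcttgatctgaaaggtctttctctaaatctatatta
DDR2: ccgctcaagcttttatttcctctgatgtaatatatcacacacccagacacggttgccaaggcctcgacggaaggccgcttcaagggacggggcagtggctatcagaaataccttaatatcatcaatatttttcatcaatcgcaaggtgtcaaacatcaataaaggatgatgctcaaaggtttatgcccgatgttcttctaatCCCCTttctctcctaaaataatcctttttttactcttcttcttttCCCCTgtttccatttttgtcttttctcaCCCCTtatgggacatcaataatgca
SIP18: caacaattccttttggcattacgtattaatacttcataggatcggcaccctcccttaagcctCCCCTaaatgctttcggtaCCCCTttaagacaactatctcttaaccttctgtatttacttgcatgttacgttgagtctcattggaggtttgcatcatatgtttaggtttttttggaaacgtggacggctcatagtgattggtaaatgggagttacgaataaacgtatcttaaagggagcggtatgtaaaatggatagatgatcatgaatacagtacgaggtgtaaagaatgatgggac
STF2: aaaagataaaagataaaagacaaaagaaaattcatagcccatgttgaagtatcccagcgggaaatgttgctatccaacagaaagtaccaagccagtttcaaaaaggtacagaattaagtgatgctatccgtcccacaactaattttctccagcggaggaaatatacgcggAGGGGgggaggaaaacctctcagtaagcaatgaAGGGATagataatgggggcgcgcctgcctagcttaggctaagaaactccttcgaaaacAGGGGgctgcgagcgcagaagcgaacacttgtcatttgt
In HSP12 the matches stood 431, 410, 373, 228 and 186 bases before the start codon. In DDR2 they stood at 468, outside the printed stretch, and at 244, 199 and 171. SIP18 had its STRE matches at 384 and 365 and its PDS core at 129, and STF2 had STRE matches at 276 and 185 around a PDS core at 242. A match describes the letters of the reference strain and shows no binding.

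**Figure D1:**
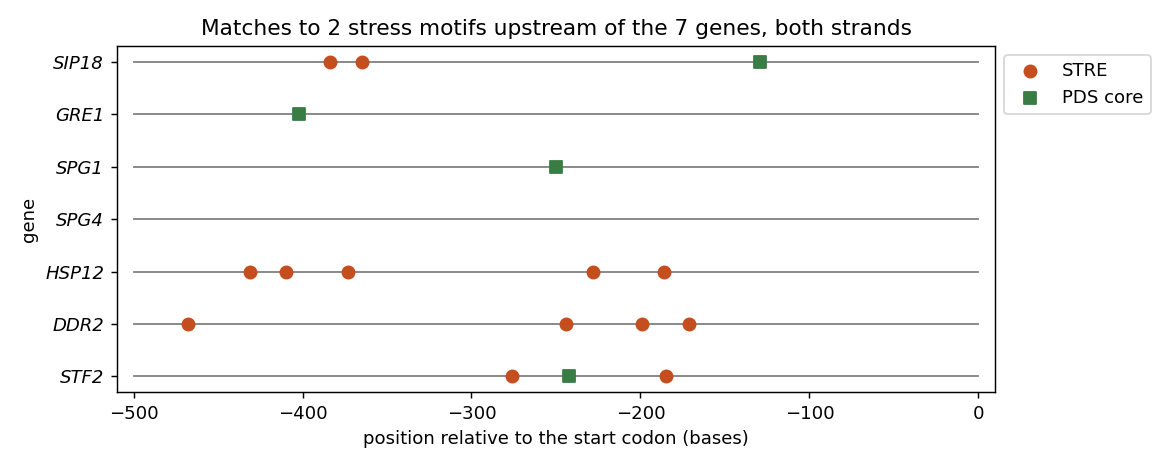
Matches to the STRE (circles) and the PDS core (squares) on either strand in the 500 bases upstream of the start codon of each gene, with the position in bases on the horizontal axis. HSP12 has 5 STRE matches and DDR2 4, SIP18 and STF2 hold both motifs, GRE1 and SPG1 hold 1 PDS core each, and SPG4 holds neither.

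All 7 genes reached their highest mean log2 CPM at time point 5 in both strains. Over all 6256 genes, time point 5 was the peak of 22.4% in W89A and 27.4% in WT. As a description, the edgeR quasi-likelihood F test of change over the cycle in W89A passed for all 7, where 75.5% of all genes did. In WT the same test passed for all 7, where 81.5% of all genes did. The lowest mean in W89A was at time point 3 for SIP18, GRE1, SPG4, HSP12 and DDR2 and at time point 2 for SPG1 and STF2. In WT it was at time point 2 for all but GRE1, whose lowest mean was at time point 3.

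The swings were wide. SIP18 spanned 7.18 log2 units between its highest and lowest group mean in W89A, a span that holds the low time point 3 level known when the genes were picked, and 5.68 in WT. GRE1 spanned 6.69 in W89A and 5.89 in WT, and STF2, the flattest of the 7, 3.92 in W89A and 4.87 in WT. For SPG1 the span was 6.17 in W89A and 6.61 in WT, and for SPG4 5.30 in W89A and 5.49 in WT. HSP12 spanned 4.87 in W89A and 5.88 in WT, and DDR2 4.07 in W89A and 5.60 in WT. The median gene spanned 0.934 in W89A and 1.04 in WT. SIP18 and GRE1 thus had a wider span in W89A and the other 5 a narrower one, a difference in spans that was not tested.

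Reads of the 7 genes came to 1.09 to 1.496% of the TMM-normalized library size at time point 5 in W89A. In WT they came to 1.93 to 2.16%. At time point 3 they came to 0.0323 to 0.0755% in W89A and 0.205 to 0.337% in WT. The normalized size differs from the number of reads in a library, so these are not shares of all reads. Per gene length, DDR2 was the most abundant at time point 5, with 28040 ± 3613 FPKM in W89A and 39130 ± 1844 FPKM in WT (SD, n = 3 each, deposited FPKM). That level ranked second of 6558 genes in both strains. HSP12 followed with 12570 ± 1896 FPKM in W89A and 23960 ± 1392 FPKM in WT, which ranked 8 in W89A and 4 in WT. SPG4 had 5040 ± 599 FPKM in W89A and 6357 ± 475 FPKM in WT. GRE1 had 2019 ± 1120 FPKM in W89A and 2746 ± 786 FPKM in WT, and its paralog SIP18 1344 ± 439 FPKM in W89A and 2463 ± 609 FPKM in WT. STF2 (1291 ± 283 FPKM in W89A, 1625 ± 41.1 FPKM in WT) and SPG1 (862 ± 207 FPKM in W89A, 1258 ± 201 FPKM in WT) were the least abundant. By these spreads DDR2, HSP12 and SPG4 were separated from each other and from the rest in both strains. GRE1 and SIP18 differed by less than the larger of their SDs in both strains, and SIP18 and STF2 did so in W89A.

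**Figure D2:**
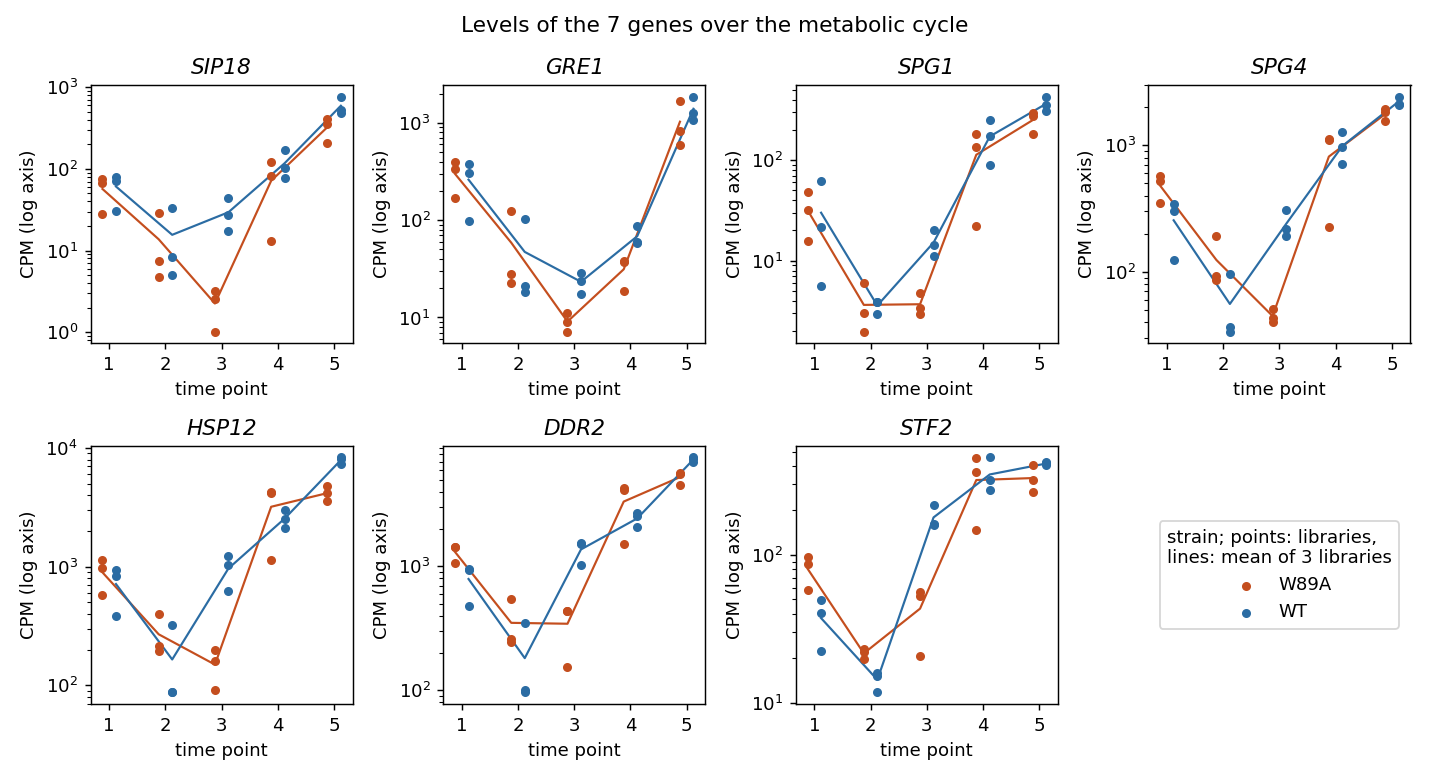
Level of each gene in CPM (log axis) against time point 1 to 5, with W89A left of WT at each time point, a point per library and a line through the means of 3 libraries. All 7 genes peak at time point 5 in both strains, and the W89A points of time point 3 lie below the WT points in all 7 panels.

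The order of the time points differed between genes. After time point 5, time point 4 was second for SPG1, SPG4, STF2, HSP12 and DDR2 in both strains. In GRE1, time point 1 came second in both strains, and its W89A libraries of time point 4 held only 18.5 to 38.1 CPM. SIP18 had time point 1 second in W89A and time point 4 second in WT, but in both strains the libraries of these 2 time points overlapped. In W89A the libraries of time points 4 and 5 also overlapped for HSP12 and STF2, and those of time points 2 and 3 for SPG1, STF2, HSP12 and DDR2. In WT, the libraries of time points 2 and 3 overlapped for SIP18 and GRE1, and not for SPG1, SPG4, STF2, HSP12 or DDR2. Over the 10 group means, log2 levels of the 21 pairs of genes correlated between 0.434 (GRE1 and STF2) and 0.987 (HSP12 and DDR2), with a median of 0.928. Time points and both strains are shared by all these points, so the values describe the profiles only. GRE1 followed the mean profile of the 7 least closely (0.780) and SPG4 most closely (0.993).

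Outside the 7, the genes with a mean of at least 10 CPM whose 10 group means lay closest to that mean profile were AYR1 (Pearson 0.9932), PRE3 (0.9931), RPN7 (0.992), TKL2 (0.9916) and FMP16 (0.9905), out of 4916. PRE3 and RPN7 encode proteasome subunits, AYR1 a lipid reductase and TKL2 a transketolase isozyme. With Spearman's rho, only PRE3 remained among the closest 5.

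At time point 1, none of the 7 genes passed the strain test in edgeR at an adjusted p of 0.05, where 8.01% of all genes did (4.41% higher in W89A). At an unadjusted p below 0.05 it was 1 gene, and in DESeq2 1 passed, in both cases STF2 (6.05% of all genes were higher in DESeq2). Over all genes, 1655 of 6256 had an unadjusted p below 0.05 in edgeR. Libraries did not overlap and were higher in W89A for STF2, SPG4 and DDR2, a pattern that 16% of all genes showed. The median difference of the 7 was 0.33 on the log2 scale, against -0.01 over all genes. STF2 had 58.1, 96.7 and 86.8 CPM in W89A (cycles 1, 2 and 3), against 22.4, 40.3 and 49.2 CPM in WT. All 3 W89A libraries lay above all WT libraries, with a log2 fold change of 1.11 ± 0.35 (SE) and an adjusted p of 0.0513 in edgeR and 0.0184 in DESeq2. Without W89A cycle 1, STF2 passed in edgeR (1.30), where 2.75% of all genes were higher. SPG4 had 351, 570.5 and 518 CPM in W89A, against 124, 341 and 301 CPM in WT (0.91 ± 0.46, edgeR adjusted p = 0.211). DDR2 had 1063, 1426 and 1432 CPM in W89A, against 479, 937 and 957 CPM in WT (0.73 ± 0.45, edgeR adjusted p = 0.312). In SPG4 the lowest W89A library exceeded the highest WT library only narrowly.

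The other genes overlapped between the strains at this time point. HSP12 had 573, 976 and 1135 CPM in W89A, against 382, 829.9 and 929 CPM in WT (0.33 ± 0.48). SIP18 had 28.2, 66.7 and 75.4 CPM in W89A, against 30.7, 71.9 and 79.9 CPM in WT, which is nearly the same set of values (-0.10 ± 0.68). GRE1 had 169, 395 and 333 CPM in W89A, against 98.6, 303 and 382 CPM in WT (0.20 ± 0.61). SPG1 had 15.6, 47.9 and 32.0 CPM in W89A, against 5.62, 62.7 and 21.8 CPM in WT (0.08 ± 0.61). Their edgeR adjusted p-values lay between 0.705 and 0.948. In both strains the cycle 1 library was the lowest of the 3 for all 7 genes. Differences of these 4 genes were smaller than their spread between cycles, which does not show that the strains were alike.

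At time point 2, near the low point of the cycle in WT, again none of the 7 passed in edgeR or in DESeq2. Over all genes, 13.1% passed in edgeR. At an unadjusted p below 0.05 in edgeR it was 2 of the 7, and 1749 of 6256 over all genes. The median difference was 0.60, against 0 over all genes. Only STF2 had libraries without overlap, a pattern of higher W89A values that 17.3% of all genes showed. STF2 had 21.9, 19.6 and 23.1 CPM in W89A, against 15.1, 11.7 and 15.97 CPM in WT (0.60 ± 0.36, edgeR adjusted p = 0.295). SPG4 had 86.2, 92.6 and 193 CPM in W89A, against 33.6, 36.6 and 96.8 CPM in WT (1.16 ± 0.47, edgeR adjusted p = 0.108). In SPG4, and in the other 6 genes too, the cycle 3 library was the highest of its group in both strains. HSP12 had 194, 215 and 398 CPM in W89A, against 86.9, 87.6 and 320.2 CPM in WT (0.71 ± 0.48, edgeR adjusted p = 0.362). DDR2 had 243, 261 and 547 CPM in W89A, against 96.2, 100.5 and 349 CPM in WT (0.95 ± 0.46, edgeR adjusted p = 0.177). Within cycles 1 and 2 the W89A values of these 2 stress genes were more than 2 times the WT values, and within cycle 3 the strains were closer. Cycle numbers did not pair the strains throughout, so these are not matched pairs.

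Calls of the 7 genes at time point 2 came in 1 alternative alone, the fit without the WT library of cycle 3. Without it, SPG4 (1.82, edgeR adjusted p = 0.0198), HSP12 (1.62, edgeR adjusted p = 0.0276) and DDR2 (1.83, edgeR adjusted p = 0.00894) were higher in W89A, where 9.02% of all genes were. STF2, SIP18, GRE1 and SPG1 did not pass without it either. That fit kept the W89A library of cycle 3, also the highest of its group, so it was not balanced between the strains. SIP18 had 4.81, 7.48 and 28.9 CPM in W89A, against 8.27, 5.09 and 33.4 CPM in WT (-0.18 ± 0.72). GRE1 had 22.4, 28.2 and 125 CPM in W89A, against 20.97, 18.2 and 102 CPM in WT (0.31 ± 0.62). SPG1 had 1.97, 3.005 and 5.95 CPM in W89A, against 2.99, 3.88 and 3.90 CPM in WT (0.03 ± 0.78). SPG1 was close to its floor in both strains, with as few as 32 reads in a W89A library. These 3 genes had adjusted p-values of 0.793 to 0.988 (edgeR).

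At time point 3 all 7 genes were lower in W89A, with no overlap between the libraries of the 2 strains. Since the genes were picked with this contrast known, its values are given as a description. Libraries without overlap and lower in W89A were found for 27.3% of all genes, and 6 of the 7 genes, all but GRE1, were lower at an adjusted p of 0.05, where 51.1% of all genes passed and 22.9% were lower. Fitted on the 6 libraries of time point 3 alone, GRE1 (-1.42) was past the threshold too, where 23.8% of the genes tested were lower. SIP18 had 2.57, 1.02 and 3.16 CPM in W89A, against 27.2, 17.4 and 43.7 CPM in WT. These W89A libraries held 45, 19 and 60 SIP18 reads. The log2 fold change of SIP18 was -3.71 ± 0.84 (SE), the fifth lowest of 6256 genes. GRE1 had 7.14, 8.92 and 11.2 CPM in W89A, against 23.9, 17.3 and 28.6 CPM in WT (-1.36 ± 0.66). Of the paralogs, GRE1 thus had the smaller difference, and per gene length it kept 17.6 ± 3.53 FPKM in W89A at time point 3 (46.9 ± 11.6 FPKM in WT), beside 9.18 ± 4.40 FPKM of SIP18 in W89A (125 ± 56.8 FPKM in WT; SD, n = 3 each, deposited FPKM).

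STF2 had 53.0, 56.0 and 20.8 CPM in W89A, against 161, 159 and 218 CPM in WT (-2.05 ± 0.36). The W89A library of cycle 3 was the lowest for STF2, SPG4, HSP12 and DDR2 and not for SIP18, GRE1 or SPG1. SPG1 had 2.97, 4.75 and 3.37 CPM in W89A, against 14.2, 11.1 and 20.2 CPM in WT (-2.03 ± 0.71), and SPG1 was no longer past the threshold without W89A cycle 1 (-1.91), without W89A cycle 3 (-1.97) or without WT cycle 3 (-1.77). SPG4 had 51.0, 43.0 and 39.9 CPM in W89A, against 218, 191 and 307 CPM in WT (-2.42 ± 0.49), with little spread in W89A. HSP12 had 199, 159 and 90.5 CPM in W89A, against 1042, 619 and 1234 CPM in WT (-2.69 ± 0.51). DDR2 had 439.9, 439.7 and 154 CPM in W89A, against 1555, 1033 and 1521 CPM in WT (-1.99 ± 0.47). For HSP12 and DDR2 the highest W89A library lay below every WT library by more than 2 times. Without the W89A library of cycle 3, which stood apart over all genes, the difference was -1.72 for STF2, -2.43 for HSP12 and -1.64 for DDR2. It was -2.34 for SPG4 and -1.97 for SPG1, and it was larger in size for SIP18 (-4.04) and GRE1 (-1.53).

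From time point 2 to time point 3, the WT libraries of SPG1, SPG4, STF2, HSP12 and DDR2 went higher without overlap. In W89A those of none of the 7 genes did, and those of SIP18, GRE1 and SPG4 went lower without overlap. Set beside the WT libraries of time point 2, the W89A libraries of time point 3 overlapped for SPG1, SPG4, HSP12 and DDR2. They lay below them for SIP18 (1.02 to 3.16 CPM in W89A at time point 3, 5.09 to 33.4 CPM in WT at time point 2) and for GRE1 (7.14 to 11.2 CPM in W89A, 18.2 to 102 CPM in WT). They lay above them for STF2 (20.8 to 56.0 CPM in W89A, 11.7 to 15.97 CPM in WT). This comparison crosses time points and was not tested. Neither for it nor for the step from time point 2 to 3 was the share over all genes computed, so these patterns have no background beside them.

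**Figure D3:**
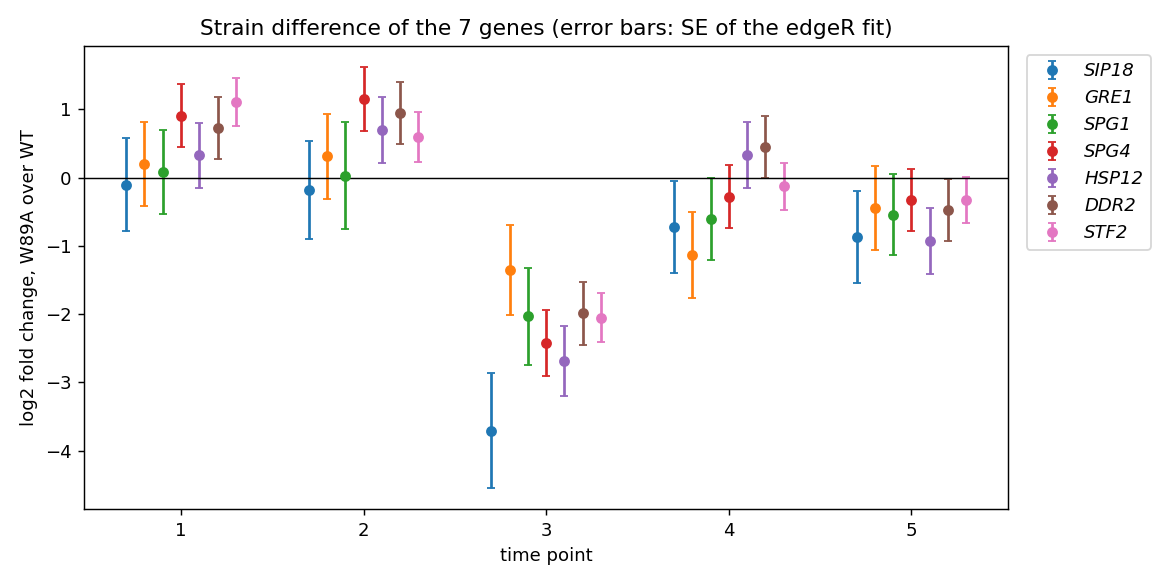
Log2 fold change of W89A over WT for each of the 7 genes at time points 1 to 5. Bars are 1 SE, worked out from the F tests of the edgeR fit of all 30 libraries. At time point 3 all 7 lie between -3.71 and -1.36, and at the other time points they lie between -1.13 and 1.16.

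By time point 4, the W89A levels overlapped those of WT in all 7 genes but GRE1. None of the 7 passed in edgeR (or DESeq2), where 21.3% of all genes passed. None had an unadjusted p below 0.05 in edgeR, where 2205 of 6256 genes did. The median difference was -0.28, against 0.01 over all genes. GRE1 had 38.1, 37.3 and 18.5 CPM in W89A, against 59.2, 57.9 and 88.0 CPM in WT (-1.13 ± 0.63, edgeR adjusted p = 0.205). Its W89A libraries lay below all WT libraries, as did those of 16.9% of all genes, and the authors' deposited table gives GRE1 at -1.13 with an adjusted p of 0.00603. With the first-cycle libraries placed by title order, GRE1 turned to 1.65 (edgeR adjusted p = 0.267). Its mean log2 levels at time points 4 and 5 lay further apart than those of any of the other 6 genes in either strain.

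In the other 6 genes the W89A library of cycle 3 was lower than the other 2 of its group by factors of 2.47 to 9.33. SIP18 had 80.9, 120.5 and 12.9 CPM in W89A, against 104, 77.4 and 171 CPM in WT (-0.72 ± 0.68). STF2 had 363, 453 and 147 CPM in W89A, against 320.5, 274 and 457 CPM in WT (-0.13 ± 0.34). In both, and likewise in SPG1 and SPG4, cycles 1 and 2 of W89A lay within the range of WT and cycle 3 below it. SPG1 had 135, 182 and 22.2 CPM in W89A, against 174, 89.3 and 253 CPM in WT (-0.61 ± 0.60). SPG4 had 1113, 1102 and 227 CPM in W89A, against 978, 715 and 1268 CPM in WT (-0.28 ± 0.46). HSP12 had 4162, 4301 and 1131 CPM in W89A, against 2513, 2118 and 3000 CPM in WT (0.33 ± 0.48). DDR2 too was lowest in cycle 3 of its W89A group, with 4314, 4161 and 1513 CPM in W89A, against 2559, 2079 and 2670 CPM in WT (0.45 ± 0.45). For HSP12 and DDR2, cycles 1 and 2 of W89A were above every WT library and cycle 3 below every one. Without the W89A library of cycle 3, the difference was 0.735 for HSP12 and 0.799 for DDR2 (edgeR adjusted p = 0.271 and 0.216), and it was -0.22 for SIP18 and -0.12 for SPG1. That library is also the one that stood apart over all genes, and its part in these values beyond this was not tested.

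At time point 5, the peak, all 7 genes had lower means in W89A, and 5 had libraries without overlap (SIP18, SPG1, SPG4, HSP12 and DDR2), a pattern that 16.9% of all genes showed. None passed in edgeR over all 30 libraries or in DESeq2, where 9.51% of all genes passed in edgeR. None had an unadjusted p below 0.05 in edgeR, where 1656 of 6256 genes did. The median difference was -0.48, against 0.005 over all genes. HSP12 had 3558, 4199 and 4759 CPM in W89A, against 7328, 8334 and 8101 CPM in WT (-0.93 ± 0.48, edgeR adjusted p = 0.228). Every W89A library lay far below every WT library, and neither group spread widely. DDR2 had 4512, 5521 and 5697 CPM in W89A, against 7557, 7345 and 6958 CPM in WT (-0.48 ± 0.45, edgeR adjusted p = 0.533). Fitted on the 6 libraries of time point 5 alone, HSP12 (-0.94, edgeR adjusted p = 0.00183) and DDR2 (-0.49, edgeR adjusted p = 0.0142) were lower in W89A, where 9.07% of the genes tested in that fit were lower.

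The remaining genes passed in neither fit. SIP18 had 208, 357 and 407 CPM in W89A, against 525, 764 and 488 CPM in WT (-0.87 ± 0.67, edgeR adjusted p = 0.436). GRE1 had 587, 832 and 1664 CPM in W89A, against 1076, 1858 and 1254 CPM in WT (-0.44 ± 0.61), with a W89A library of cycle 3 above 2 of the WT libraries. Leaving out 1 library moved the GRE1 difference between -0.98 (without W89A cycle 3) and -0.15 (without W89A cycle 1). STF2 had 266, 407 and 320.3 CPM in W89A, against 416, 426 and 404 CPM in WT (-0.33 ± 0.34), and 1 W89A library exceeded the lowest WT one. For these 2 hydrophilin genes the strains overlapped. SPG1 had 183, 274 and 292 CPM in W89A, against 306, 428 and 355 CPM in WT (-0.54 ± 0.60). SPG4 had 1544, 1929 and 1819 CPM in W89A, against 2090, 2424 and 2135 CPM in WT (-0.33 ± 0.46). Both stationary phase genes had every W89A library below every WT library. Adjusted p-values of GRE1, STF2, SPG1 and SPG4 lay between 0.575 and 0.687 (edgeR).

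The fit of all 30 libraries gives each gene 1 spread, and the spread of these genes was far from even. Their biological coefficient of variation ran from 0.292 for STF2 to 0.581 for SIP18, against a median of 0.136 over all genes. The median SD of log2 CPM over the 7 genes was 0.307 in W89A and 0.116 in WT at time point 5, and 0.646 in W89A and 1.06 in WT at time point 2. At time point 4 it was 1.10 in W89A and 0.378 in WT, and over all genes the median SD per group lay between 0.143 and 0.220. The authors' deposited tables, which compare the same libraries one time point at a time, list at an adjusted p under 0.05 and time point 5 HSP12 (-0.93), DDR2 (-0.48), SPG1 (-0.55) and SPG4 (-0.34) as lower. They list DDR2 (0.74) and STF2 (1.13) as higher at time point 1, and STF2 (0.59) as higher at time point 2. At time point 3 they list all 7 as lower. The share of all genes that these tables list was not computed, so their calls have no background beside them.

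Averaged over the 5 time points, 1 of the 7, SIP18 (-1.12 ± 0.32), was past the threshold, where 48.8% of all genes were (21.7% lower in W89A), and the other 6 had differences between -0.61 ± 0.30 (SPG1) and -0.07 ± 0.20 (DDR2). The interaction of strain and time point passed for SPG4, HSP12, DDR2 and STF2, where 41.9% of all genes did, and in DESeq2 also for SIP18. Both results hold time point 3 and are given as descriptions. With time point 3 left out, an analysis added after seeing the data, the interaction passed for 0 of the 7 in edgeR and DESeq2. Over all genes, 5.37% passed in edgeR. At an unadjusted p below 0.05 in edgeR, the interaction passed for 1 of the 7 (STF2), where 1396 of 6256 genes did. Its adjusted p was 0.163 for STF2, 0.244 for SPG4 and 0.337 to 0.888 for the other 5 (edgeR).

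Related genes were taken as lists, which were also chosen with earlier results of these data known. Their calls carry that limit. The paralogs and ATPase inhibitor relatives HOR7, TMA10, STF1 and INH1 had 1 of 4 past the threshold at time point 1 in edgeR. At time points 2, 4 and 5 edgeR gave 0. At an unadjusted p below 0.05 it was 0, 0 and 1 there, and in DESeq2 0, 0 and 1. TMA10, the paralog of STF2 and a ribosome-associated protein, was higher at time point 1 (0.90 ± 0.24, edgeR adjusted p = 0.0216). That call was lost without WT cycle 1 (0.64), W89A cycle 2 (0.85) or W89A cycle 3 (0.79). STF1 and INH1 encode inhibitors of the mitochondrial ATPase, the enzyme for which STF2 was named. In the contrast of time point 3, TMA10 (-1.12 ± 0.24), STF1 (-1.67 ± 0.21) and INH1 (-0.52 ± 0.19) were lower, and HOR7, the paralog of DDR2, was at -0.33 ± 0.23. The INH1 call there was lost without WT cycle 2 (-0.45), WT cycle 3 (-0.47), W89A cycle 1 (-0.49) or W89A cycle 3 (-0.50).

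Of the other hydrophilin genes ROQ1, NOP6 and YNL190W, 0 passed at time points 1, 2 and 5 in edgeR (1, 0 and 1 at an unadjusted p below 0.05, and 0, 0 and 0 in DESeq2), and YNL190W was higher at time point 4 (0.47 ± 0.13, edgeR adjusted p = 0.0113). Without WT cycle 3, YNL190W was at 0.38 at time point 4 and did not pass, nor did it without W89A cycle 1 (0.41). Time point 3 split these genes. NOP6 (1.41 ± 0.20), which serves ribosome biogenesis, and YNL190W (0.60 ± 0.13) were higher there, where 28.2% of all genes were, and ROQ1 (-1.33 ± 0.29), a regulator of protein degradation under stress, was lower.

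The other genes named for or known from stationary phase also differed among themselves. Of SPG3, SPG5, SNZ1, SNO1, SPI1 and YGP1, 0 passed at time point 1 in edgeR (2 at an unadjusted p below 0.05, and 1 in DESeq2). At time point 2, 2 were higher, where 8.44% of all genes were, and 1 lower, where 4.64% were. 1 was higher at time point 4 and 1, SPG3 (-0.45 ± 0.14), lower at time point 5, where 4.44% of all genes were lower. That SPG3 call was lost without any 1 of the 6 libraries but WT cycle 2 (-0.50 to -0.33). SNO1, which works with SNZ1 in vitamin B6 synthesis, was higher at time point 2 (1.29 ± 0.29, edgeR adjusted p = 0.00618) and time point 4 (1.35 ± 0.30, edgeR adjusted p = 0.00313). Without WT cycle 1, the SNO1 difference at time point 2 was 1.11 (edgeR adjusted p = 0.0515), and with the 6 libraries of time point 4 alone the adjusted p there was 0.0603. In the contrast of time point 3, SNO1 (2.58 ± 0.31) and SNZ1 (1.79 ± 0.28) were higher, while YGP1 (-2.37 ± 0.50) and SPI1 (-1.58 ± 0.32), which encode cell surface proteins, and SPG3 (-0.36 ± 0.14) were lower. The SPG3 call there was lost without any 1 of the 6 libraries but W89A cycle 2 (-0.37 to -0.32). SNZ1 and SNO1 had their highest W89A mean at time point 3, where the 7 genes were at or near their lowest.

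Of 12 general stress genes (CTT1, HSP26, HSP104, HSP42, SSA4, DDR48, GRE2, GRE3, ALD3, PNC1, DCS2 and MSC1), 0 passed at time point 1 in edgeR (3 at an unadjusted p below 0.05, and 0 in DESeq2) and 1 at each of time points 2, 4 and 5, against 4, 2 and 1 in DESeq2. Over all genes in edgeR, 8.44% were higher at time point 2, 10.9% higher at time point 4 and 4.44% lower at time point 5. At time point 3 all 12 were lower, where 22.9% of all genes were, from -2.93 ± 0.66 for HSP26, a small heat shock chaperone, to -0.94 ± 0.25 for DDR48. Their median there was -1.59, against -2.05 for the 7 genes and 0.08 over all genes. DDR48 was higher at time point 2 (0.96 ± 0.28, edgeR adjusted p = 0.0219) and time point 4 (0.82 ± 0.24, edgeR adjusted p = 0.0171). The first of these calls was lost without WT cycle 1 (0.71), W89A cycle 1 (0.92) or W89A cycle 3 (0.81). The other was lost without WT cycle 2 (0.76), WT cycle 3 (0.83) or W89A cycle 2 (0.70). CTT1, the cytosolic catalase, was lower at time point 5 (-1.27 ± 0.40, edgeR adjusted p = 0.0453), a call that was lost without any 1 of the 6 libraries but W89A cycle 3 (-1.40 to -1.14).

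The regulators of these genes, MSN2, MSN4, GIS1, RIM15, HOG1, HOT1 and SKO1, had no lower call at any time point in edgeR. Of the 7 regulators, 2 were higher at time point 1 (where 4.41% of all genes were), 1 at time point 2 (where 8.44% were), 1 at time point 3 (where 28.2% were), 4 at time point 4 (where 10.9% were) and 3 at time point 5 (where 5.07% were). In DESeq2, 2, 1, 1, 4 and 4 regulators were higher at time points 1 to 5, and 1 was lower at time point 3. RIM15 had lower W89A libraries at time point 3 without overlap, a pattern of 27.3% of all genes. Its libraries held 29.9 to 37.8 CPM in W89A and 41.3 to 42.7 CPM in WT. MSN4 was higher at time point 4 (0.68 ± 0.15, edgeR adjusted p = 0.00252) and MSN2 likewise (0.53 ± 0.12, edgeR adjusted p = 0.00377). In the contrast of time point 3, MSN4 was at 0.70 ± 0.15, while MSN2 (0.08 ± 0.12) and GIS1 (0.15 ± 0.19) were not past the threshold. GIS1 was higher at time point 1 (0.80 ± 0.19, edgeR adjusted p = 0.0128), but not without WT cycle 1 (0.68) or W89A cycle 2 (0.60). Outside time point 3, 20 calls were made for genes of these 5 lists, and 2 of them, those of MSN2 and MSN4 at time point 4, passed in every alternative.

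**Figure D4:**
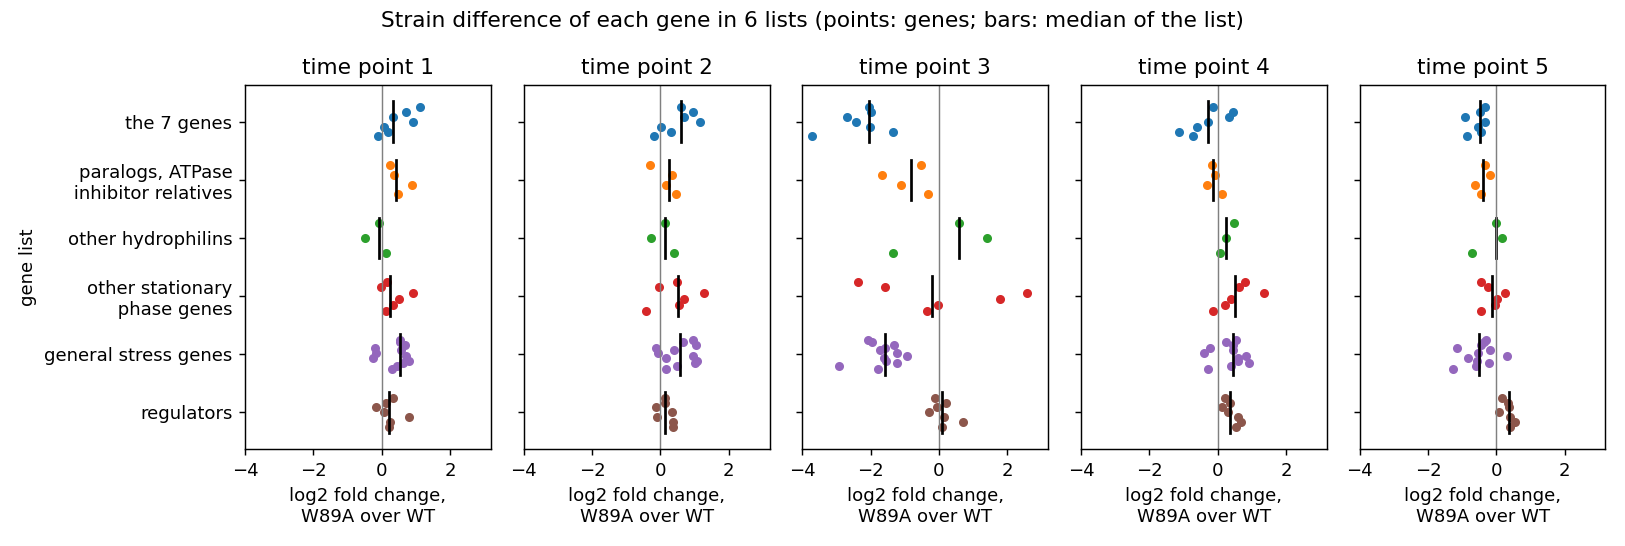
Log2 fold change of W89A over WT at time points 1 to 5 for each gene of the 7 and of 5 related lists, with a point per gene and a bar at the list's median. At time point 3 the 7 genes (median -2.05) and the 12 general stress genes (median -1.59) lie below 0, while the regulators lie around 0 (median 0.08).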

How the data were processed

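The deposited count table gives whole-number read counts per gene, made by the authors before deposit. The authors' comparison tables also hold a normalized signal per library, which was not used, FPKM values per gene length, log2 fold changes and p-values, all as deposited. Aligner and counting tool are not stated in the sources used here. The submitters' processing notes name a mouse build (mm9) alone, but 5904 of 5913 matched genes had the same start and end as in yeast R64. Genes were matched from the authors' symbols to the counts by identifier. Counts of the 30 libraries were fitted together in edgeR 4.0.16 (R 4.3.3, glmQLFit robust, TMM, filterByExpr, a mean per group; 6256 genes kept, 871 removed). Tests were 2-sided, adjusted by Benjamini-Hochberg over all genes tested, with a threshold of 0.05. The SE of a log2 fold change is its absolute value divided by the square root of the F statistic of its test. CPM are counts scaled to the normalized library size, and log2 CPM used a prior count of 2. The fit was tested on simulated counts. Alternatives were DESeq2 1.42.0, other scalings, no filter, a replicate block, the 6 libraries of a time point alone, leaving out each library, and other placements of the first-cycle W89A libraries. The 7 genes and the lists were chosen with earlier results of these data known. The genes named are the 7, all genes of the lists and the 5 closest profiles among genes with a mean of at least 10 CPM. Upstream sequence was read from R64 with Python 3.11.15, and motifs were searched in 500 bases. No 2 libraries of a group agreed within sampling noise. Strand of the counting was not stated.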

Additional observations from a re-analysis of the deposited data

How the results depend on the processing

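The number of the 7 genes past the threshold stayed at 0 for time point 4 and for the interaction without time point 3 in every alternative run for them. At time point 1 it was 1 with DESeq2 (STF2), and at time point 5 it was 2 with the 6 libraries alone. Leaving out 1 library gave 0 to 1 of the 7 at time point 1, 0 to 3 at time point 2 and 5 to 6 at time point 3. It gave 1 to 3 for the average and 4 to 6 for the interaction. Over all genes those fits called 73 to 474, 319 to 859 and 2690 to 3063 genes at time points 1, 2 and 3. They called 2883 to 3071 for the average and 2228 to 2895 for the interaction. Among the 7, the single call at time point 1 came without W89A cycle 1 (STF2, 1.30). For the average, SPG1 passed (-0.71) without the WT library of time point 1, cycle 1, and GRE1 (-0.73) and HSP12 (-0.53) without the W89A library of time point 2, cycle 3. Leaving out 1 library turned the sign of values near 0, none of them called. The log2 fold change then ran from -0.42 to 0.22 for SIP18, from -0.19 to 0.58 for GRE1 and from -0.41 to 1.21 for SPG1 at time point 1. At time point 2 it ran from -1.35 to 1.05 for SIP18, from -0.90 to 1.58 for GRE1 and from -0.53 to 0.32 for SPG1. At time point 4 it ran from -0.56 to 0.17 for SPG4 and from -0.46 to 0.22 for STF2, and DDR2's average ran from -0.16 to 0.11. Other differences kept their sign but moved by over 1.5 times. They ran from 0.02 to 0.57 for HSP12, 0.46 to 0.88 for DDR2 and 0.58 to 1.18 for SPG4 at time point 1, and from 0.31 to 1.62 for HSP12, 0.47 to 1.83 for DDR2 and 0.68 to 1.82 for SPG4 at time point 2. At time point 4 they ran from -1.33 to -0.22 for SIP18, -1.13 to -0.12 for SPG1, 0.06 to 0.74 for HSP12 and 0.23 to 0.80 for DDR2. At time point 5 they ran from -0.98 to -0.15 for GRE1, -0.67 to -0.35 for SPG1 and -0.49 to -0.19 for STF2. In the average they ran from -0.29 to -0.06 for SPG4, -0.73 to -0.23 for GRE1 and -0.22 to -0.09 for STF2. Averages of HSP12 ran from -0.53 to -0.26 and those of SPG1 from -0.73 to -0.39. With the first-cycle W89A libraries placed by title order, GRE1 turned to 1.65 at time point 4 and to 0.015 in the average. That placement also took the calls over all genes to 178 at time point 1 (501 as reported), 486 at time point 2 (818), 362 at time point 5 (595) and 197 for the interaction without time point 3 (336). With both libraries left out they were 842 at time point 4 (1334), 116 at time point 5 and 192 for that interaction. DESeq2 gave 784 at time point 1 and 697 for that interaction, and the 6 libraries alone 837 at time point 1, 487 at time point 4 and 1086 at time point 5. Leaving out 1 library moved them further. At time point 1 they were 73 without WT cycle 1, 202 without WT cycle 3, and 295, 84 and 239 without W89A cycles 1, 2 and 3. At time point 2 they were 355 and 544 without W89A cycles 1 and 2, and 319 and 516 without WT cycles 1 and 2. At time point 4 they were 869 without W89A cycle 1 and 668 without WT cycle 3. At time point 5 they were 125 and 210 without W89A cycles 1 and 2, and 198 and 268 without WT cycles 1 and 3. For the interaction without time point 3 they ran from 200 to 599, the highest without the W89A library of time point 4, cycle 3. Shares over all genes rest on these counts. The causes were not tested. Over all genes, cycle numbers did not pair the strains throughout (same-numbered libraries correlated between -0.218 and 0.275, over 0.1 in 3 of 15 pairs). Libraries of unlike cycle number reached nearly the same height (0.256 at time point 4, W89A cycle 3 and WT cycle 2). Among same-numbered libraries, the highest values were those of time point 1, cycle 1 (0.275), and time point 2, cycle 3 (0.26). There the 7 genes were also at the lowest and the highest of their group, respectively, in both strains. With the cycle as replicate block, the count at time point 3 was 7 in place of 6 (GRE1, -1.40). The interaction was 5 in place of 4 (SIP18), with no other count changed. GRE1 also passed at time point 3 with the 6 libraries alone. SIP18 also passed the interaction with DESeq2, with DESeq2 size factors, with TMM from genes without the 10 most abundant and with strain and cycle as replicate block. Depth limits SIP18 and SPG1 at their lowest, down to 19 reads a library.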
